A study of Mus musculus with 100 samples.

Results

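The Dlk1-Meg3 cluster is an imprinted domain near the distal end of mouse chromosome 12, and it was followed here in the RNA of fibroblasts, of the iPSCs reprogrammed from them and of an ESC line. Its members were named by gene symbol: Dlk1, Meg3, Rian, Mirg, Rtl1 and Dio3. Of these 6 genes, 4 had a row among the 25965 genes of the expression table. Rian and Mirg were not analysed here. RNA-seq covered 18 libraries in 6 groups of 3 replicates. Female MEFs, mouse embryonic fibroblasts, came from E13.5 F1 embryos of an i4F-BL6 mother and a CAST/EiJ father. The i4F-BL6 strain is C57BL/6J with a doxycycline-inducible cassette of the reprogramming factors Oct4, Sox2, Klf4 and c-Myc, so MEFs and iPSCs alike carry it. The KSR-iPSCs were 4 lines, F KSR2 and F KSR4 (female) with M KSR3 and M KSR5 (male), reprogrammed by doxycycline in medium with Knockout Serum Replacement and LIF and then grown without doxycycline. Each line was grown from a single picked colony, plated on feeders. The female lines came from a single embryo and the male lines from another, so that effects of sex and of embryo cannot be told apart. Male MEFs were not among the RNA-seq libraries, and the male lines are set against female MEFs throughout. TX 2i ESCs are the female line TX1072, of a BL6 mother and a CAST father, kept in serum medium with LIF and the 2i inhibitors PD0325901 and CHIR99021, so that serum as well as 2i sets their culture apart from that of the KSR-iPSCs. In all groups the maternal copy of a gene is therefore BL6 and the paternal copy CAST, and no reciprocal cross was sequenced, so parent and strain of an allele cannot be told apart.

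In most tissues the maternal chromosome of this domain transcribes the noncoding RNAs Meg3, Rian and Mirg together with many microRNAs, and the paternal chromosome transcribes the protein-coding genes Dlk1, Rtl1 and Dio3. The choice is set by an intergenic control region between Dlk1 and Meg3 that is methylated on the paternal chromosome. Without that methylation the paternal copy can take on the maternal programme, and in mouse iPSCs the domain is known for gaining or losing its imprint during reprogramming. Meg3 is a long noncoding RNA, Dlk1 a transmembrane and secreted relative of the Notch ligands that restrains adipocyte differentiation, Rtl1 a retrotransposon-derived protein needed in the placenta, and Dio3 the deiodinase that inactivates thyroid hormone.

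On the GRCm38 build that the table uses, Dlk1 (ENSMUSG00000040856) spans chr12:109452823-109463336 and Meg3 (ENSMUSG00000021268) chr12:109541001-109571726, both on the plus strand. Rtl1 (ENSMUSG00000085925) lies on the minus strand at chr12:109589194-109600330, and Dio3 (ENSMUSG00000075707), a gene of a single exon, on the plus strand at chr12:110279068-110281097. The 4 genes cover 828 kb, and the table has no other row between the start of Dlk1 and the end of Dio3. Promoters are shown because the levels of Meg3, Dlk1 and Dio3 moved apart from each other in the libraries. They are RefSeq sequences of GRCm38.p6, 250 bases before and 50 after the annotated start, at chr12:109540746-109541045 for Meg3, chr12:109452573-109452872 for Dlk1 and chr12:110278980-110279279 for Dio3, all on the plus strand and written 5′ to 3′. Capitals mark TGACGTCA, the full cyclic AMP response element, and TATAAA, a core promoter box, searched on both strands.
Meg3 promoter: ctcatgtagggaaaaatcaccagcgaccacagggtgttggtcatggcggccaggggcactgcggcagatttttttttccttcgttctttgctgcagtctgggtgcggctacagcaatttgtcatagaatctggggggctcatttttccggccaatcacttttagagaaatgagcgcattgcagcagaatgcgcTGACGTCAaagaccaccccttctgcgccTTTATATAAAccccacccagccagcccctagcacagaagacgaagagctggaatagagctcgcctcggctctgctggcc
Dlk1 promoter: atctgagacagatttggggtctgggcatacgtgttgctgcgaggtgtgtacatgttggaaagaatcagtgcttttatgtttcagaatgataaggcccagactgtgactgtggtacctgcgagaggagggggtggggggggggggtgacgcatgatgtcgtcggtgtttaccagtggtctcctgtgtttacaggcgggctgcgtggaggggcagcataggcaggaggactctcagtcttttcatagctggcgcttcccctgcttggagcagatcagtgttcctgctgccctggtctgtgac
Dio3 promoter: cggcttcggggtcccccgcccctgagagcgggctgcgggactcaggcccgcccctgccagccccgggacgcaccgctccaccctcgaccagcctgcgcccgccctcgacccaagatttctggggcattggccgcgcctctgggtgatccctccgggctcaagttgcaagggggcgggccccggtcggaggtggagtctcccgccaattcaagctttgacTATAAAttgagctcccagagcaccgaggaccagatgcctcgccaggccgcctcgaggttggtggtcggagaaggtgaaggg
Among the 3, only the Meg3 promoter held the cyclic AMP response element, which began 57 bases before the start and is present in 1.79% of the 32851 promoters of the same length in the RefSeq table. TATAAA on the gene's strand began 25 bases before the RefSeq start of Meg3 and 31 before that of Dio3, a match that 8.32% of the promoters hold. The RefSeq start of Dio3 lies downstream of the start that the expression table gives. Most of its window, with the match at chr12:110279199-110279204, therefore lies inside the gene span given above. In the Meg3 promoter the same letters also lie on the other strand 29 bases before the start and overlap the first match. Neither motif was in the Dlk1 window. The Dio3 window held 25 CpGs, the Meg3 window 13 and the Dlk1 window 9, against a median of 7 over all promoters. A match of letters does not say that a factor binds there.

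The transcription units of the cluster also carry microRNAs, which RNA-seq of this kind does not measure, and their mature sequences are shown to place them within Meg3 and opposite Rtl1. RefSeq lists 114 mature entries between Dlk1 and Dio3, of which 3 lie within Meg3 on its strand. Within Rtl1 there are 13 entries, 11 of them, from 6 genes, on the strand opposite to Rtl1. The following are given 5′ to 3′ with the seed, bases 2 to 8, in capitals.
mmu-miR-770-5p: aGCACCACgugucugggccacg
mmu-miR-770-3p: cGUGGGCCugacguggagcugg
mmu-miR-127-5p: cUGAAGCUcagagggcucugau
mmu-miR-127-3p: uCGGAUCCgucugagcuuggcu
mmu-miR-434-5p: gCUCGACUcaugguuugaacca
mmu-miR-434-3p: uUUGAACCaucacucgacuccu
The first pair comes from Mir770 within Meg3, and the others from Mir127 and Mir434 opposite Rtl1. No seed is shared among these 6.

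Libraries held 13183036 to 17921280 reads on genes, of which 17.7 to 19.9% could be assigned to an allele. Levels are log2 RPM, the log2 of the reads of a gene scaled to the depth of the library or, for an allele, to that allele's own total. They are the deposited values, not corrected for gene length, and a gene with 0 reads stands at the value of 0.9 read. All 10 pluripotency markers examined were detected in each of the 15 pluripotent libraries, and 6 or 7 of the 10 had 0 reads in the MEF libraries. Of 15 fibroblast markers, the median one had 0.0447 to 0.302% of its level in MEFs in 14 of the pluripotent libraries, and 0.854% in M KSR5 replicate 3. Summed over the list, their level was 1.46 to 4.72% of that in MEFs, and between 1 and 7 of the 15 markers had 0 reads in a pluripotent library.

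Meg3 had the highest level of the cluster per length in every pluripotent group. It was lower than in fibroblasts in most of them, and in all of them part of it came from the paternal copy, which was nearly silent in fibroblasts. In female MEFs its log2 level was 9.00, 9.77 and 10.08 in the 3 libraries. F KSR4 gave 8.37, 9.55 and 7.82, and F KSR2 gave 9.37, 8.77 and 7.08. In both female lines the highest library reached the range of the MEFs and the lowest did not. The libraries of M KSR3 lay close together at 8.33, 8.23 and 8.29, those of M KSR5 at 6.80, 7.28 and 7.93, and those of TX 2i ESCs at 7.13, 7.22 and 6.27. Thus no library of the male lines or of the ESCs reached the lowest MEF library. From the highest mean to the lowest the order was MEFs, F KSR4, F KSR2, M KSR3, M KSR5 and TX 2i ESCs. The libraries of each neighbouring pair in this order overlapped, except for M KSR3 and M KSR5.

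Against female MEFs, limma tested 3 members, since Rtl1 was too low to enter, and 10 of the 15 differences from the 5 pluripotent groups passed an adjusted p of 0.05, all of them lower than in MEFs. The 5 comparisons share the same MEF libraries. The median of all genes lay 0.08 to 0.30 above MEFs on the log2 scale, against -0.0026 to 0.052 with median of ratios scaling. Over all genes tested, 29% were lower in TX 2i ESCs, 28.9% in M KSR5, 28.2% in M KSR3, 31.2% in F KSR4 and 29% in F KSR2. Meg3 fell by 2.74 on the log2 scale in TX 2i ESCs (standard error 0.50, limma adjusted p = 1.2e-04) and fell by 2.28 in M KSR5 (adjusted p = 6.9e-04). In M KSR3 it fell by 1.33 (adjusted p = 0.026) and in F KSR2 it fell by 1.21 (adjusted p = 0.041). In F KSR4 the log2 difference was -1.04 (adjusted p = 0.078), which did not pass. The call in F KSR2 was lost without F KSR2 replicate 3, where the difference was -0.55 (adjusted p = 0.29), without MEF replicate 2 (-1.14) or without MEF replicate 3 (-0.98). The call in M KSR3 was lost without MEF replicate 2 or 3 or without any of the M KSR3 libraries, at values of -1.36 to -1.10, and F KSR4 passed without F KSR2 replicate 3, F KSR4 replicate 2 or MEF replicate 1. In bulk RNA, fewer cells with a transcript and less of it per cell cannot be told apart.

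**Figure D1:**
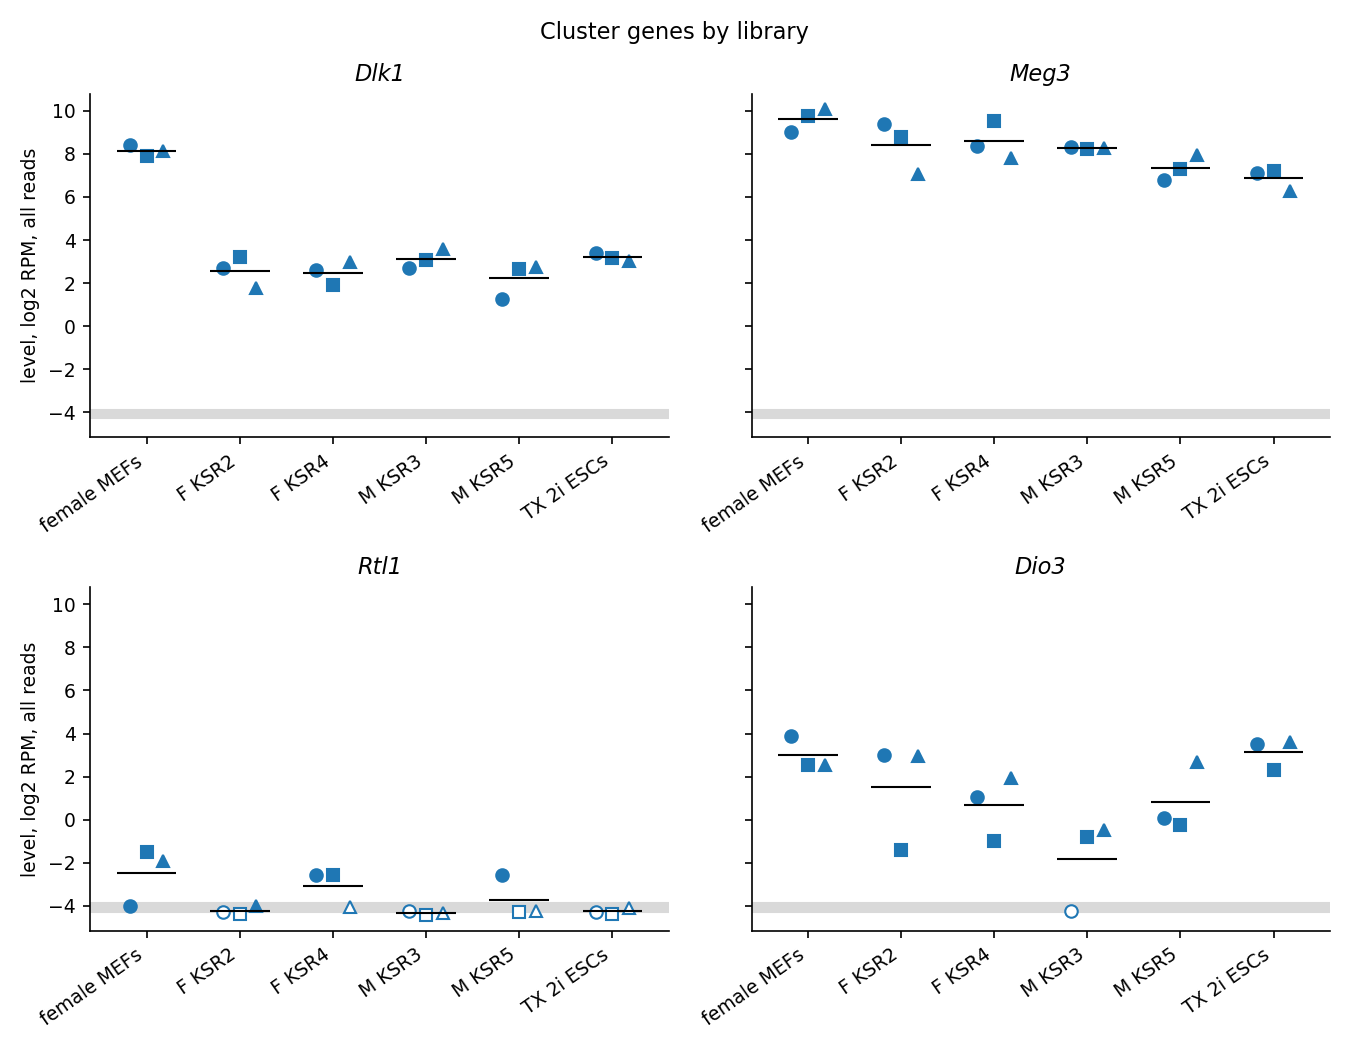
Level of the 4 cluster genes in each library, as log2 RPM of all reads (y axis), by group (x axis). Circles, squares and triangles are replicates 1, 2 and 3, open symbols have 0 reads, black lines are group means and the gray band is the value of 1 read. Dlk1 stood at 7.92 to 8.40 in the MEFs and at 1.25 to 3.56 in the pluripotent libraries, whereas Meg3 stood at 6.27 or above in all of them.

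The parental origin of Meg3 RNA was read from allelic reads. MEF libraries gave 999, 1934 and 2453 maternal reads against 0, 0 and 1 paternal reads. F KSR2 gave 887, 609 and 143 maternal and 921, 563 and 184 paternal reads, and F KSR4 gave 302, 462 and 227 maternal and 616, 1197 and 173 paternal reads. Paternal Meg3 was thus read in every library of the female lines, at a number close to or above that of the maternal reads. M KSR3 gave 142, 196 and 133 maternal and 612, 691 and 673 paternal reads, M KSR5 234, 379 and 509 maternal and 24, 27 and 131 paternal reads, and TX 2i ESCs 76, 93 and 33 maternal and 253, 273 and 125 paternal reads. Paternal reads were the larger number in every library of M KSR3 and TX 2i ESCs, and the maternal reads in every library of M KSR5.

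The maternal share, maternal reads in percent of all reads of a gene that could be given to a parent, was 99.99% ± 0.0235 (SD, n = 3) for Meg3 in MEFs. M KSR5 kept the most maternal share, 87.9% ± 7.33, followed by F KSR2 at 48.3% ± 4.17, F KSR4 at 39.2% ± 15.4, TX 2i ESCs at 23.1% ± 2.26 and M KSR3 at 19.1% ± 2.81 (SD, 3 libraries each). Every library of the 5 groups lay below every MEF library. F KSR4 was the most uneven group, with replicates at 32.9%, 27.8% and 56.8%, whose 95% Wilson intervals of 29.9 to 36.0%, 25.7 to 30.1% and 51.9 to 61.5% cover counting error only. In M KSR5 replicate 3 the share was 79.5% (Wilson interval 76.2 to 82.5%), below the 90.7% and 93.3% of the other libraries of that line. By the median marker that library also held the most fibroblast RNA, though by the summed markers F KSR4 replicate 2 did, at 4.72% against 2.55%. With the fibroblast share at the median marker subtracted, the mean of M KSR5 was 87.7%. A share between the extremes in bulk RNA does not tell cells that use both copies from a mixture of cells that each use a single copy.

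With exact two-sided permutation tests of the mean share against MEFs, p was 0.1 for Meg3 in each group, which is the smallest value that 3 against 3 libraries can give. Over Meg3 and Dlk1 the libraries did not overlap with those of MEFs in 9 of 10 comparisons, of which Dlk1 in M KSR5 had a share in only 2 libraries. Among all genes with a share in every library of both groups, 34.3% did not overlap in TX 2i ESCs, 29.6% in M KSR5, 37.6% in M KSR3, 25.9% in F KSR4 and 31.7% in F KSR2. Dlk1 in M KSR5 would not enter by this stricter rule, and fewer libraries overlap less easily. The remaining chromosome 12 genes, summed, gave maternal shares of 51.4 to 57.6% in the F KSR2 libraries and group means of 50.8 to 51.3% in the other 5 groups, with a mean of 55.3% in F KSR2.

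**Figure D2:**
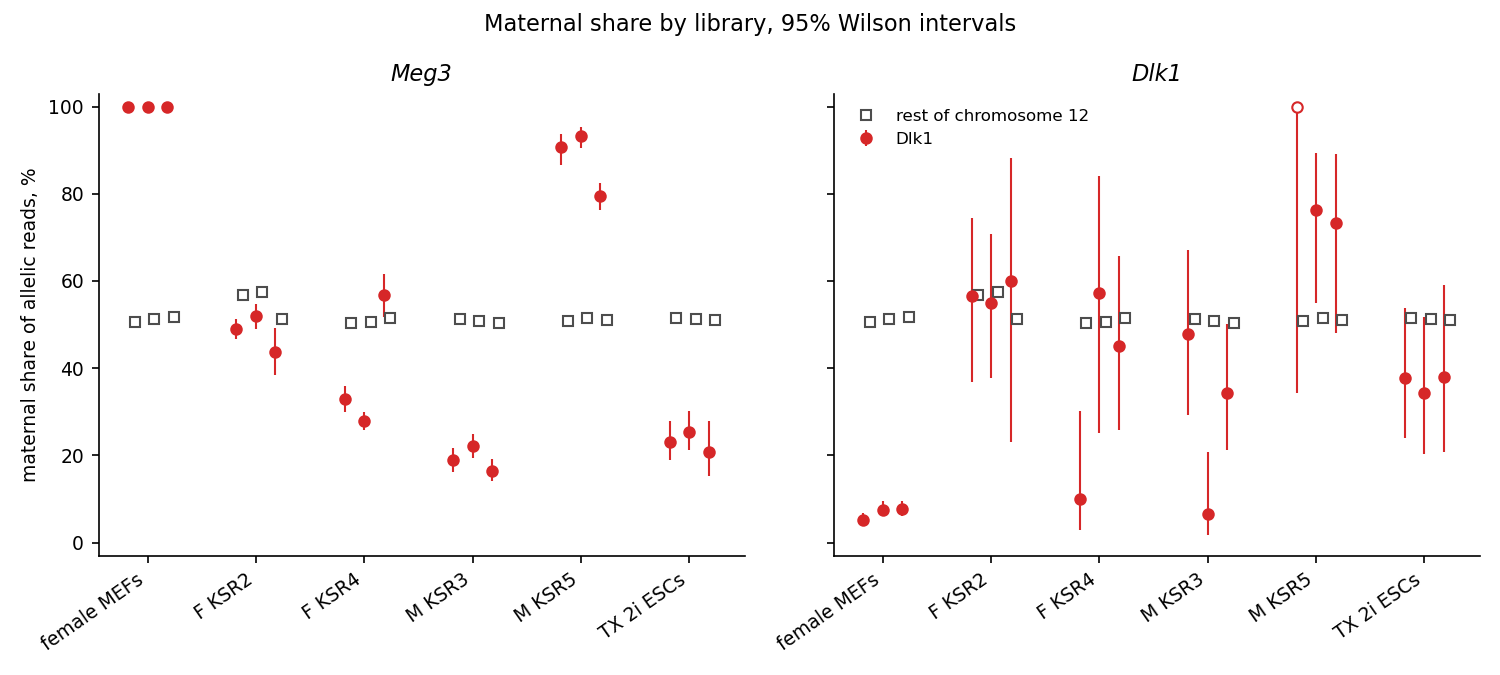
Maternal share of allelic reads in percent (y axis) for Meg3 and Dlk1 in each library, by group (x axis), in red with 95% Wilson intervals, and for the remaining genes of chromosome 12 as gray squares. The open circle is the M KSR5 library with fewer than 5 allelic Dlk1 reads. Meg3 lay near 100% in MEFs, at 79.5 to 93.3% in M KSR5 and at 16.5 to 25.4% in M KSR3 and TX 2i ESCs.

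The maternal and paternal levels were also fitted apart, and they moved in opposite directions. Maternal Meg3 was lower than in MEFs in all 5 groups, with log2 differences of -1.90 (F KSR2), -2.31 (F KSR4), -3.49 (M KSR3), -2.18 (M KSR5) and -4.53 (TX 2i ESCs), each with a standard error of 0.47 and limma adjusted p between 2.3e-07 and 0.0024. Among all genes, 23.7, 26.2, 24, 23.5 and 23.5% were lower on the maternal side in the same groups. Paternal Meg3 was higher in all 5 groups (highest limma adjusted p = 5.4e-07, M KSR5), where 30.7, 26.2, 31.3, 30.9 and 29.6% of genes were higher on the paternal side. Without F KSR2 replicate 3 the maternal difference in F KSR2 was -1.18 and the paternal one 9.74 in place of 9.14. The paternal difference was 9.98 in F KSR4 without its replicate 3, in place of 9.32, and 4.93 in M KSR5 without its replicate 3, in place of 5.75, all fitted against the single read in MEFs. Against the single paternal read in the MEF libraries together, paternal Meg3 in RPM was 2077 times as high in F KSR2, with a 95% counting interval of 372 to 82081, and 218 times as high in M KSR5, with an interval of 38.7 to 8670. In RPM of an allele's own reads on genes, and relative to the maternal level of Meg3 in MEFs, the paternal copy reached 55.3% ± 42.7 in F KSR4, 46.1% ± 31.2 in F KSR2, 54.7% ± 1.36 in M KSR3, 15.96% ± 4.93 in TX 2i ESCs and 4.91% ± 5.00 in M KSR5 (SD, 3 libraries each). The maternal copy stood at 21.8% ± 7.70, 35.3% ± 24.4, 9.19% ± 1.51, 4.60% ± 1.87 and 23.4% ± 8.93 of its MEF level in these groups, in the same order. The paternal total was the smaller in every library, with 53.9% of allelic reads maternal in MEFs and 58.5% in M KSR3. A paternal read therefore weighed more than a maternal one, and these percentages do not add up to the level in all reads. In none of the 5 groups did the mean of either copy reach the level of the maternal copy in MEFs.

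**Figure D3:**
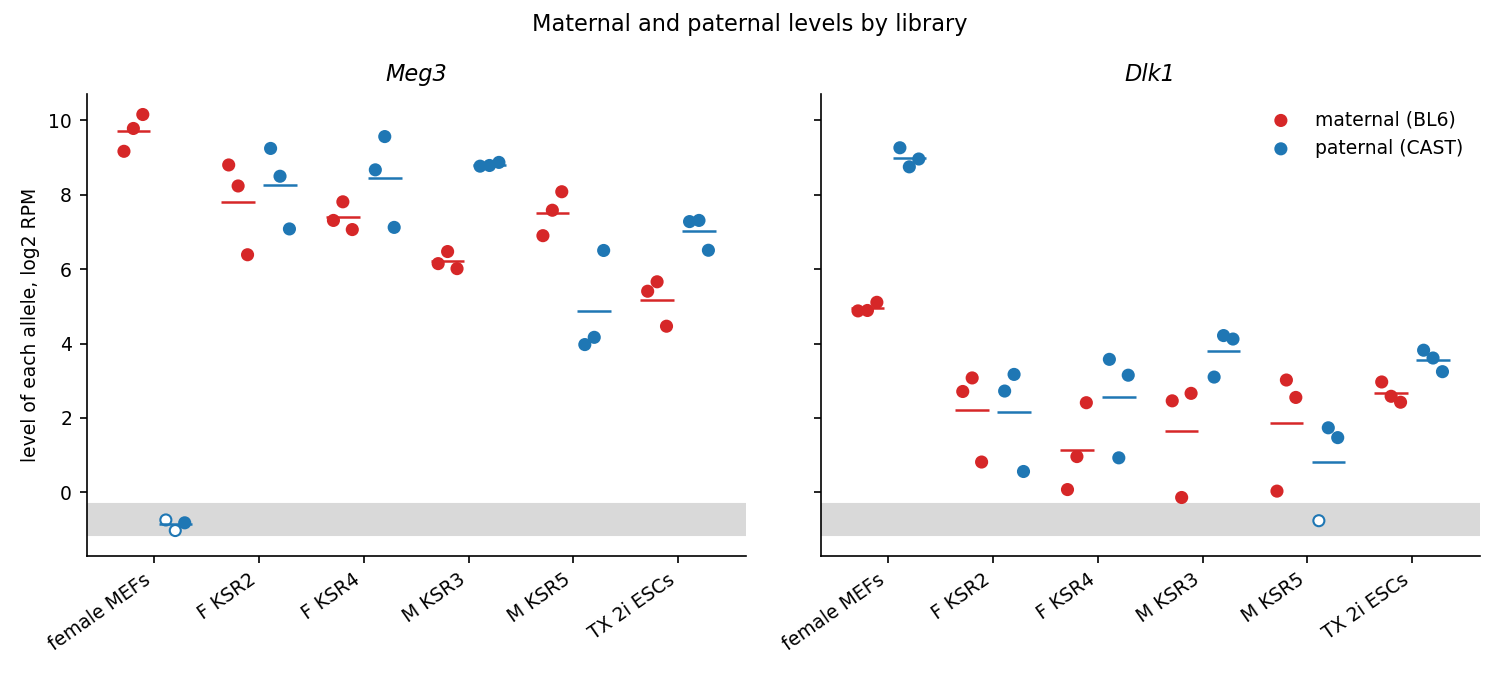
Maternal (BL6, red) and paternal (CAST, blue) level of Meg3 and Dlk1 in each library, as log2 RPM of that allele's reads (y axis), by group (x axis). Lines are group means, open symbols have 0 reads and the gray band is the value of 1 read. Paternal Meg3 was at or near 0 reads in MEFs and at 24 reads or more in each pluripotent library, and both alleles of Dlk1 lay lower in the pluripotent groups than in MEFs.

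Dlk1, the paternally expressed gene at the centromeric end of the cluster, fell in every pluripotent group. MEF libraries gave log2 levels of 8.40, 7.92 and 8.13. F KSR2 gave 2.69, 3.23 and 1.77, F KSR4 2.60, 1.91 and 2.96, and M KSR3 2.69, 3.05 and 3.56. M KSR5 gave 1.25, 2.68 and 2.75, and TX 2i ESCs 3.39, 3.18 and 3.01. The highest pluripotent library lay more than 4 below the lowest MEF library on the log2 scale, and the pluripotent groups overlapped with each other, except that every TX 2i ESC library lay above every library of F KSR4 and of M KSR5. The log2 differences from MEFs were -5.59 (F KSR2), -5.66 (F KSR4), -5.05 (M KSR3), -5.93 (M KSR5) and -4.96 (TX 2i ESCs), with a standard error of 0.42 each and limma adjusted p between 1.6e-09 and 1.4e-08. In linear terms Dlk1 was 60.8-fold lower in M KSR5 and 31.0-fold lower in TX 2i ESCs. Per kb of merged exon, Dlk1 stood at 55.3 ± 8.90 RPM in MEFs and Meg3 at 49.8 ± 17.8, so both genes had like levels there. In TX 2i ESCs Dlk1 stood at 1.82 ± 0.27 RPM per kb and Meg3 at 7.56 ± 2.56, and in M KSR3 at 1.78 ± 0.52 against 19.6 ± 1.00 (SD, n = 3 each).

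Few allelic reads were left for Dlk1 after this fall. MEF libraries gave 51, 65 and 74 maternal against 928, 792 and 882 paternal reads, a maternal share of 6.84% ± 1.42 (SD, n = 3). In the pluripotent libraries the allelic reads of Dlk1 numbered from 2 to 38, so that their Wilson intervals were wide. The maternal share was 76.2% and 73.3% in the M KSR5 libraries with at least 5 allelic reads. F KSR2 stood at 57.1% ± 2.63, F KSR4 at 37.4% ± 24.5, TX 2i ESCs at 36.8% ± 2.08 and M KSR3 at 29.5% ± 21.1 (SD, 3 libraries each). Of the M KSR3 libraries, replicate 2 gave 6.45% (Wilson interval 1.79 to 20.7%), within the range of the MEFs, and the others 47.8% and 34.2%. The exact two-sided permutation p against MEFs was 0.3 in M KSR3, 0.2 in M KSR5, the smallest that 2 against 3 libraries can give, and 0.1 in each of the remaining groups.

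Both copies of Dlk1 fell in each group. Paternal Dlk1 was lower than in MEFs, with log2 differences of -6.84 (F KSR2), -6.44 (F KSR4), -5.18 (M KSR3), -8.18 (M KSR5) and -5.44 (TX 2i ESCs), each with a standard error of 0.75 and a limma adjusted p of 1.4e-05 or below, where 25.4, 25.1, 24.3, 24.5 and 23.5% of all genes were lower on the paternal side. Maternal Dlk1 was lower too, with log2 differences of -2.76, -3.81, -3.30, -3.09 and -2.30 in the same groups (standard error 0.85 each, limma adjusted p between 0.0010 and 0.029). Without M KSR3 replicate 2 maternal Dlk1 stood at -2.40 in M KSR3, without M KSR5 replicate 1 at -2.17 in M KSR5 and without F KSR4 replicate 3 at -4.44 in F KSR4. Paternal Dlk1 stood at -6.05 in F KSR2 without its replicate 3, at -5.63 in F KSR4 without its replicate 2 and at -7.39 in M KSR5 without its replicate 1. The call for the maternal copy was lost in F KSR2 without F KSR2 replicate 3 (-2.07, adjusted p = 0.065) and in TX 2i ESCs without any of the MEF libraries or without TX 2i ESC replicate 2 or 3 (-2.34 to -2.18). Over the libraries of a group, 9 paternal reads remained in M KSR5, 26 in F KSR2 and 66 in M KSR3, against 2602 in MEFs. Fibroblast markers bear on these low numbers. If fibroblast RNA were present at the median level of its markers, it would give 1.05 to 35.6% of the Dlk1 reads of a pluripotent library, with a median of 6.55% and the maximum in M KSR5 replicate 3. At the summed level of the markers, in which Fn1 dominates, it would give 55.0 to 323% of them, against 3.87 to 23.9% of the Meg3 reads. These estimates take fibroblast RNA to have the alleles of the MEFs. The strain of the feeders is not given in the paper, and RNA from another strain would be split otherwise between the parents. Whether feeder RNA was present was not tested. With the share at the median level subtracted, the mean maternal share of Dlk1 was 71.9% ± 24.3 in F KSR2 (SD, 3 libraries). It was 52.9% ± 45.0 in F KSR4 (3 libraries) and 90.3% ± 13.7 in M KSR5 (2 libraries). Each rise rests mainly on 1 library whose paternal reads fell to 0. These were replicate 3 of F KSR2 (2 reads, 1.38 subtracted), replicate 2 of F KSR4 (3, 2.09) and replicate 3 of M KSR5 (4, 6.12). M KSR3 (30.5%) and TX 2i ESCs (37.4%) changed little. The 10 calls against MEFs were 10 as before.

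The balance of the alleles was also tested in itself, as log2 maternal minus log2 paternal in each library. For Meg3 it was lower than in MEFs in all 5 groups, with fitted differences of -7.93 in M KSR5 to -13.17 in M KSR3, with limma adjusted p of 5.5e-09 or below, but these sizes depend on the value given to 0 paternal reads in MEFs. Among all genes, 8.53% were lower in TX 2i ESCs, 3.87% in M KSR5, 8.63% in M KSR3, 4.72% in F KSR4 and 6.15% in F KSR2. For Dlk1 the balance rose by 5.09 in M KSR5 (standard error 0.85, limma adjusted p = 7.4e-04), by 4.08 in F KSR2 (adjusted p = 0.0033) and by 3.13 in TX 2i ESCs (adjusted p = 0.020), where 6.66, 8.91 and 8.26% of all genes were higher. In F KSR4 and M KSR3 the difference was 2.63 (adjusted p = 0.067) and 1.88 (adjusted p = 0.14), against 4.67 and 11.7% of genes. The call in TX 2i ESCs was lost without MEF replicate 1 or without TX 2i ESC replicate 1 or 3 (2.96 to 3.11), and both F KSR4 (2.63) and M KSR3 (2.98) passed without M KSR3 replicate 2, F KSR4 also without F KSR4 replicate 1 (3.68).

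**Figure D4:**
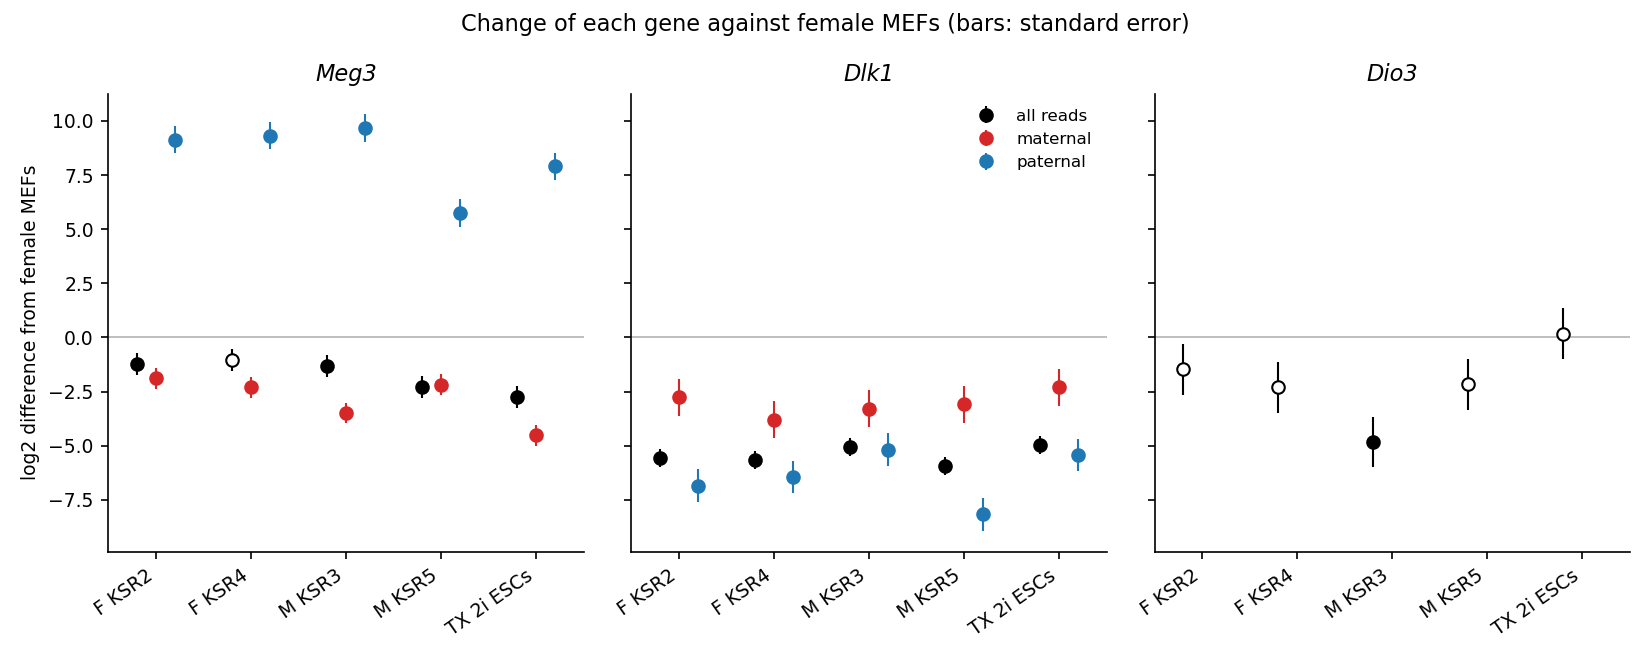
Log2 difference from female MEFs (y axis) of Meg3, Dlk1 and Dio3 in each pluripotent group (x axis), for all reads in black, maternal reads in red and paternal reads in blue, with standard errors. Filled symbols passed an adjusted p of 0.05 in limma. Maternal and paternal Meg3 lay on opposite sides of 0, and the paternal values of Meg3 are fitted against 1 read in MEFs and are not bounds.

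Dio3, at the telomeric end, was low in MEFs and uneven in the iPSCs. MEF libraries held 241, 114 and 110 reads, log2 levels of 3.88, 2.54 and 2.53, and TX 2i ESC libraries 206, 92 and 191, log2 levels of 3.53, 2.30 and 3.60. F KSR2 held 143, 7 and 129 reads and F KSR4 38, 9 and 57. M KSR3 held 0, 11 and 13 reads and M KSR5 19, 15 and 109. TX 2i ESCs overlapped with MEFs, and M KSR3 lay below every MEF library and every other group's highest library. Dio3 fell by 4.83 on the log2 scale in M KSR3 (standard error 1.18, limma adjusted p = 0.0016), a fit that sets its library with 0 reads at 0.9 read. Without that library, replicate 1, the difference was -3.63, and without replicate 3 it was -5.52. The other differences were -1.46 in F KSR2 (adjusted p = 0.28), -2.31 in F KSR4 (adjusted p = 0.092), -2.16 in M KSR5 (adjusted p = 0.11) and 0.16 in TX 2i ESCs (adjusted p = 0.91). Without M KSR5 replicate 3 the difference in M KSR5 passed at -3.07 (adjusted p = 0.042), F KSR4 passed without F KSR2 replicate 2 (adjusted p = 0.045), and without that library the value in F KSR2 itself was 0.0039. Both F KSR4 (-1.67) and M KSR5 (-1.57) also passed when 1 was added to the linear value. Allelic reads of Dio3 were few: 7, 1 and 7 paternal and 0 maternal reads in MEFs, 5, 2 and 0 paternal and 0, 0 and 1 maternal reads in TX 2i ESCs, and 0 to 4 in an iPSC library. Paternal Dio3 passed as lower in F KSR4, M KSR3 and M KSR5 (limma adjusted p = 0.044, 0.033 and 0.031), which rests on 15 reads in MEFs against 1, 0 and 0 and on the value given to 0 reads. A change of its parental origin was not detectable at this depth.

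Rtl1 was at the edge of detection in all groups. MEF libraries held 1, 7 and 5 reads, and among the 15 pluripotent libraries 3 held 3 reads, 1 held a single read and 11 held 0. A count of 0 allows up to 3 reads in a library. No fold is given, since the pluripotent groups were at or below this limit. Its only allelic read, in MEF replicate 2, was paternal.

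Within the pluripotent groups, the male lines differed in which copy of the cluster they used. The balance of Meg3 differed by -5.24 on the log2 scale, lower in M KSR3 than in M KSR5 (standard error 0.47, limma adjusted p = 8.9e-06), with every M KSR3 library at 22.1% maternal or below and every M KSR5 library at 79.5% or above. The balance of Dlk1 differed by -3.21 (standard error 0.85, adjusted p = 0.030), and 8.79% of all genes passed in this comparison. The call for Dlk1 rests on few reads and was lost without M KSR3 replicate 2 (-2.10, adjusted p = 0.11) or without any of the M KSR5 libraries (-3.33 to -3.09), and was -3.96 without M KSR3 replicate 1. Paternal Meg3 was 15.2-fold higher in M KSR3 (log2 difference 3.93, standard error 0.63, limma adjusted p = 0.0070), where 0.981% of genes passed. Without M KSR5 replicate 3 it was 26.7-fold higher (log2 difference 4.74). Paternal Dlk1 differed in the same direction by 2.998 (adjusted p = 0.074), maternal Meg3 by -1.31 (adjusted p = 0.12, where 6% of genes passed) and maternal Dlk1 by -0.21. So both Meg3 and Dlk1 had a larger paternal share in M KSR3 and a larger maternal share in M KSR5, although the genes belong to opposite parental programmes in MEFs.

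In the female lines no such difference passed the test. Between F KSR2 and F KSR4 the balance of Meg3 differed by 0.59 (standard error 0.47, limma adjusted p = 0.65) and that of Dlk1 by 1.45 (standard error 0.85, adjusted p = 0.46), where 8.25% of genes passed. In all reads, the differences of Meg3, Dlk1 and Dio3 between lines of the same sex did not pass in limma in any of 6 tests, with 1 at an unadjusted p under 0.05 and 0 in limma-voom. The share of genes that passed was 1.14% between the female and 4.48% between the male lines. The single value below 0.05 was Dio3 between M KSR3 and M KSR5, with a log2 difference of -2.68 (adjusted p = 0.23). Meg3 was higher in M KSR3 by 0.94 (standard error 0.50, adjusted p = 0.34), and this passed (adjusted p = 0.030) when only the libraries of the lines compared were fitted.

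Against TX 2i ESCs, the mean of the 4 KSR-iPSC lines was higher for Meg3 by 1.28 on the log2 scale, or 2.43-fold (standard error 0.40, limma adjusted p = 0.027), and for Dio3 it differed by -2.85 (standard error 0.93, adjusted p = 0.035). Dlk1 differed by -0.60 (standard error 0.33, adjusted p = 0.21). These are 2 of 3 members, against 23% of all genes. For Dio3, 3 of the 12 KSR-iPSC libraries lay within the range of the TX 2i ESCs and 9 below it, while for Meg3 10 lay above that range, 2 within it and 0 below. Leaving out any of the TX 2i ESC libraries ended both calls (Meg3 0.98 to 1.45, Dio3 -3.28 to -2.62). That for Dio3 was also lost without M KSR5 replicate 1 (-2.76, adjusted p = 0.050) or replicate 2 (-2.72).

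The 6 female and 6 male KSR-iPSC libraries gave no member past the threshold (0 of 3 in limma, 0 at an unadjusted p under 0.05 and 0 in limma-voom), where 2.87% of all genes passed. The log2 difference of female minus male was 0.68 for Meg3 (standard error 0.38, limma adjusted p = 0.35), 1.61 for Dio3 (standard error 0.99, adjusted p = 0.41) and -0.14 for Dlk1 (standard error 0.36, adjusted p = 0.87). These libraries come from 2 lines of each sex. With the mean of each line as 1 value, 4 genes of 13609 passed in place of 390, and the adjusted p was 0.56 for Meg3, 0.62 for Dio3 and 0.94 for Dlk1.

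Pooled over the pluripotent groups, replicates varied more for Meg3 and Dio3 than for genes of like level. Over the 15 pluripotent libraries the pooled SD within groups was 0.75 for Meg3 on the log2 scale, against a median of 0.28 for the 1359 genes whose mean lay within 1 of it, and 99.2% of these genes had a smaller SD. For Dio3 it was 1.80 against 0.71 over 1929 genes (99.1% smaller), and for Dlk1 0.60 against 0.48 over 2759 genes (70.8% smaller). In F KSR2 the level of Meg3 ran from 2219 to 11830 reads, and in F KSR4 from 3338 to 13580, between libraries of similar depth.

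The neighbours of the cluster with a maternal share in all 3 libraries of a group were read from both copies. Of 19 genes on both flanks, from Evl to Traf3, 15 or 16 per group had a maternal share in all 3 libraries. Their group means ran from 28.6% (Begain in MEFs) to 70.0% (Cinp in TX 2i ESCs), with medians of 50.2 to 55.0% per group, and 0 of them lay below 10% or above 90% in any group. Meg3 and Dlk1 lay outside these limits in MEFs. Slc25a47, not among the genes counted in F KSR2, had a mean of 96.4% over 2 libraries there, and its shallowest library held 4 allelic reads. Begain was uneven, at 28.6% in MEFs, 57.2% in F KSR2 and 64.8% in M KSR5, where its shallowest library held 20, 7 and 9 allelic reads. In the allelic balance against MEFs, of 16 neighbours tested 1 was lower in F KSR4 (Zfp839, -1.72, limma adjusted p = 0.018), 2 were lower in M KSR3 (Ankrd9 furthest, -1.54, adjusted p = 0.040), 2 were higher in TX 2i ESCs (Cinp furthest, 1.05, adjusted p = 0.037) and 0 passed in F KSR2 and M KSR5. In level the neighbours moved in both directions: Stk30, a kinase also called Mok, was higher than in MEFs by 2.91 to 3.59 on the log2 scale in F KSR2, F KSR4, M KSR5 and TX 2i ESCs, and Slc25a29, a mitochondrial amino acid carrier, differed by -2.68 to -2.58 in F KSR2, F KSR4 and M KSR5. The gene for the chaperone Hsp90aa1 rose by 2.66 in M KSR3, where Slc25a47 fell by 2.43, and Begain, the nearest gene upstream of Dlk1 in the list, fell by 3.01 in TX 2i ESCs and stood higher by 1.66 in the KSR-iPSCs than there. Of 18 tested, 9 were higher and 2 lower than in MEFs in F KSR2, while F KSR4 had 3 and 6, M KSR3 had 7 and 6, M KSR5 had 5 and 4, and TX 2i ESCs had 4 and 2, and 67, 65.8, 67.6, 67.9 and 66.5% of all genes passed in either direction in these groups. Wars, a tryptophanyl-tRNA synthetase, was higher by 1.11 in F KSR2 than in F KSR4 (limma adjusted p = 0.0018).

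**Figure D5:**
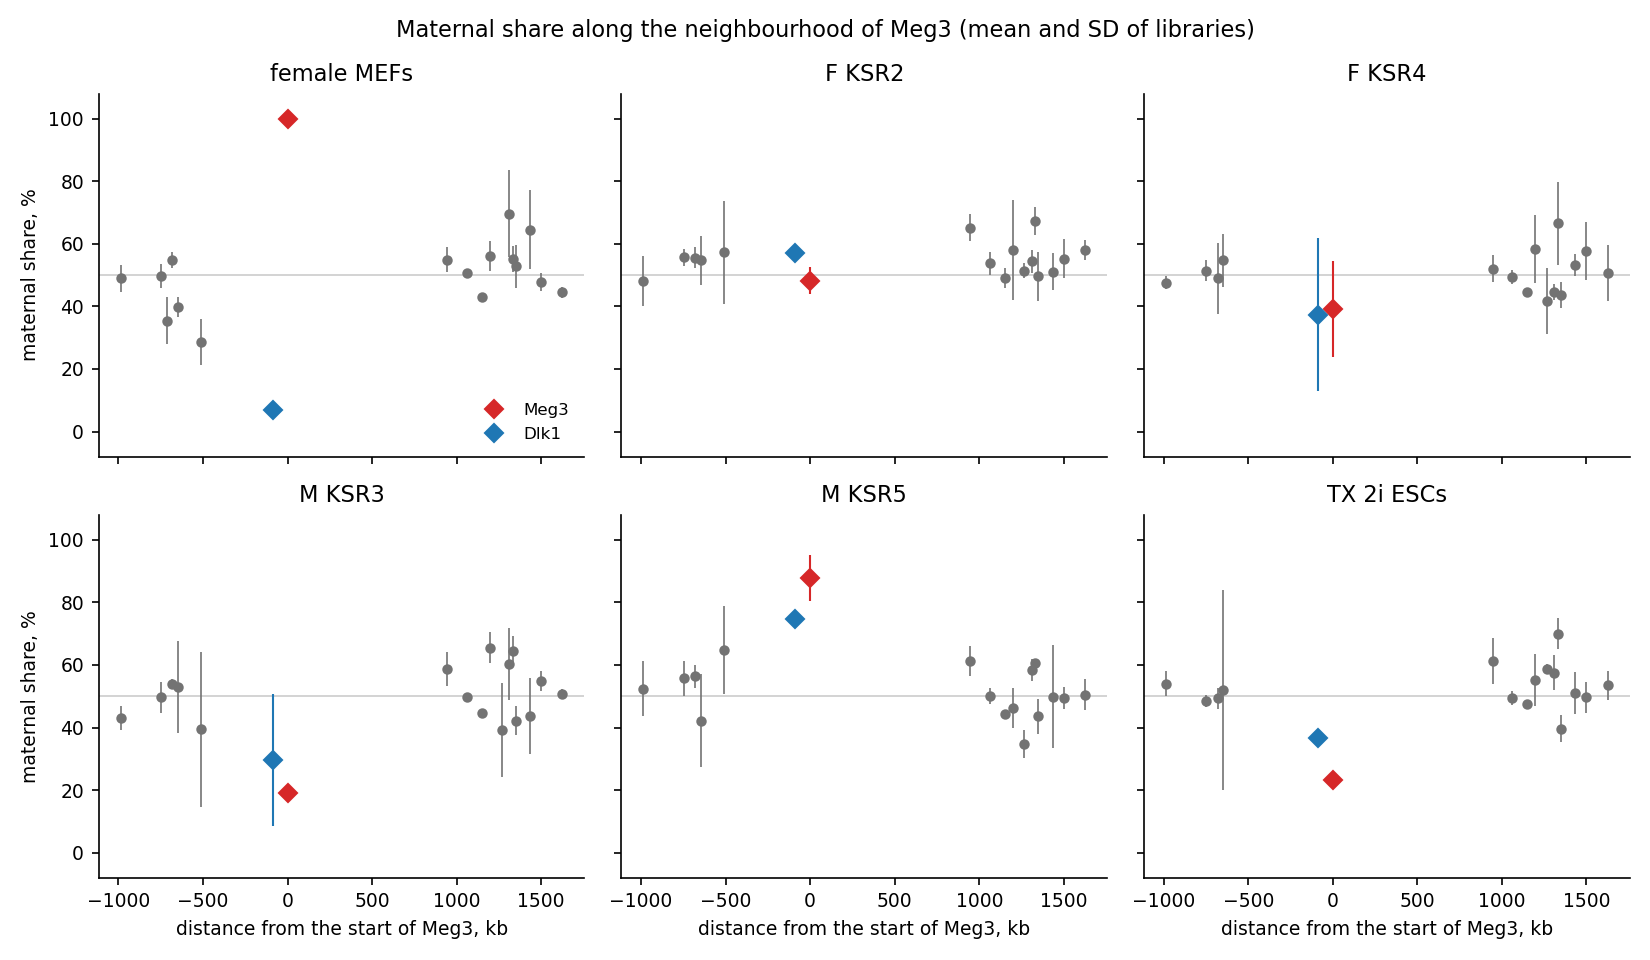
Mean maternal share in percent with the SD of the libraries (y axis) against the distance from the start of Meg3 in kb (x axis), in each group. Red diamonds are Meg3, blue diamonds Dlk1 and gray points the neighbours with a share in all 3 libraries. These neighbours lay between 28.6 and 70.0% in all groups, while Meg3 and Dlk1 were at opposite extremes in MEFs and both lay between those extremes in the pluripotent groups.

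Listed genes for factors of DNA methylation and demethylation, imprint protection and chromatin were mostly higher than in MEFs. In each of the 5 comparisons 13 of the 14 genes were higher, where 37.5% of all genes were higher in TX 2i ESCs, 39% in M KSR5, 39.4% in M KSR3, 34.6% in F KSR4 and 38% in F KSR2. The median log2 difference of the list was 2.35 in F KSR4 to 3.15 in M KSR5, beside medians of 0.08 to 0.30 over all genes. Dnmt3l, the cofactor of de novo methylation, had the largest difference in every group, 9.25 in TX 2i ESCs to 10.71 in M KSR5. Aff3, which binds the control region, was the gene that fell in 3 groups, with log2 differences of -2.08 in TX 2i ESCs, -1.16 in F KSR2 and -0.80 in F KSR4. The difference of female minus male KSR-iPSCs was -1.33 on the log2 scale (limma adjusted p = 0.0077), which did not pass with the mean of each line as 1 value (adjusted p = 0.26), and higher in KSR-iPSCs than in TX 2i ESCs by 1.76 (adjusted p = 1.1e-04). Dppa3, which protects imprints from demethylation in the early embryo, was lower in M KSR3 than in M KSR5, with a log2 difference of -2.41 (standard error 0.64, adjusted p = 0.042), the lines that differ in the balance of Meg3. Whether it has a part in that difference was not tested.

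The genes around the functions of Dlk1 and Dio3, Notch ligands and receptors and the handling of thyroid hormone, moved in both directions. Of 14 tested, 4 or 5 were higher and 5 or 6 lower than in MEFs in each group, or 64.3 to 78.6% in either direction, near the 65.8 to 67.9% of all genes. The Notch ligand Jag2 rose by 5.98 in M KSR3 to 6.82 in M KSR5. Dlk2, the closest relative of Dlk1, had log2 differences of -5.22 in F KSR2, -5.07 in M KSR3 and -4.46 in M KSR5. Notch4, a Notch receptor, was lower in KSR-iPSCs than in TX 2i ESCs, with a log2 difference of -1.80 (limma adjusted p = 0.0016).

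Across the 15 pluripotent libraries and 13828 genes, the level of Meg3 was most like those of Trp53i11 (Pearson r = 0.91), Chrd (0.86), Zc3h11a (0.86), Syvn1 (0.85) and Zbed6 (0.84), and that of Dlk1 most like those of C630043F03Rik (0.85), Pigu (0.84), Fam36a (0.79), Tmem35 (0.76) and Pdia3 (0.75). Zc3h11a and Zbed6 share a locus. These values are descriptions over libraries that are replicates of only 5 groups and not independent of each other.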

How the data were processed

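Strand-specific RNA-seq libraries (RNA integrity above 9, per the labels) were trimmed with Trim Galore 0.6.1 and aligned to GRCm38 with HISAT2 2.1.0, per the submitters' processing notes. Reads were assigned to BL6 or CAST at strain polymorphisms and counted per gene in SeqMonk by the authors. The deposited values are log2 RPM (depth-scaled reads) for all, maternal and paternal reads of each library. Although described as length-corrected in a supplement, they were whole multiples of 1 read for every gene: 99.97 to 100% of values gave whole reads within 0.05 read, and genes at 0 reads stood at 0.9 read. Reads were recovered from these steps.

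Deposited log2 values were compared with limma 3.58.1 (R 4.3.3), in 1 fit over all 6 groups, for genes above 0 in at least 3 libraries (14632 genes for all reads, 13795 maternal, 13768 paternal), with Benjamini-Hochberg adjustment over all genes tested. Female and male KSR-iPSC libraries were instead compared in a fit of their own, by sex and without a term for line (13609 genes). Allelic ratios were fitted for 11253 genes with a mean of at least 10 allelic reads. Maternal shares used libraries with at least 5 allelic reads, 95% Wilson intervals and exact permutation tests. The fits were also run on simulated counts with the same spread set for all genes, which do not stand for the wider spread of Meg3 and Dio3. The alternatives were limma-voom on recovered reads, another scaling, pseudocounts, filters, a replicate block, fits of the compared libraries alone, and each library left out. P-values of limma measure differences against a spread between libraries that is pooled over the groups fitted and moderated across genes. For Meg3 the SD within a group ran from 0.054 in M KSR3 to 1.19 in F KSR2. This spread may be partly technical. The members and gene lists were chosen with earlier results of these data known. Named from the lists were the genes with the largest change in either direction past the threshold. A gene that this rule also named is not reported here. Amplicon methylation samples of the series were not analysed here. Sequences are from RefSeq (GRCm38.p6).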

Additional observations from a re-analysis of the deposited data

Results flagged for a closer look

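M KSR3 and M KSR5 differed from each other in their change against female MEFs by a test of the difference itself. The log2 difference was -5.24 for the allelic balance of Meg3, -3.21 for that of Dlk1 and 3.93 for paternal Meg3. Both lines came from the same embryo, and each is a single colony.

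Among the 6 male KSR-iPSC libraries the level of Rtl1 set 1 library, with 3 reads, apart from the 5 with 0 reads, at a gap of 0.901 of the range. The 5 stand at the value given to 0 reads and differ by depth alone. How often chance gives such a gap is therefore not known.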

How the results depend on the processing

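Dlk1 was lower in all 5 pluripotent groups under each alternative run. Beside the calls given with their results, Meg3 was lost with no filter in F KSR2 (adjusted p = 0.082) and M KSR3 (0.054) and, with only the libraries compared, in F KSR2 (0.075). Dio3 passed with only the libraries compared in F KSR4 (0.030) and M KSR5 (0.033). The Dlk1 balance passed with a pseudocount of 1 in F KSR4 (0.0090) and M KSR3 (0.019) and, at a mean of 50 allelic reads, in F KSR4 (0.049), and with only the libraries compared it was lost between M KSR3 and M KSR5 (0.10). With no filter maternal Dlk1 was lost in TX 2i ESCs (0.053). Against TX 2i ESCs the count of 2 members fell to 0 with no filter on low values, and was 0 to 2 with a library left out. Between lines of the same sex, fitting only the libraries compared gave 1 of 5 tests in place of 0 of 6 (0 to 0 with a library left out), and for the allelic ratio 1 of 4 in place of 2 (1 to 2). With a library left out, the counts were 8 to 11 of 15 against MEFs, 19 to 20 of 20 for the separate alleles of Meg3 and Dlk1 (paternal Dio3, with 3 of 5, not counted), 7 to 10 of 10 for the ratio, 8 of 9 to 10 of 10 for the share (the Dlk1 share of M KSR5 needs 2 libraries) and 0 to 0 of 3 between female and male lines. With the replicate number as a block the counts were 10 of 15, 2 of 3, 0 of 3, 0 of 6, 20 of 20, 8 of 10 and 2 of 4, and the block changed no count. The numbers were not taken to pair libraries: the deviations of same-numbered libraries correlated above 0.1 in 13 of 45 pairs, against 12 of 90 with other numbers, although all 3 such pairs of F KSR2 with TX 2i ESCs did (0.25, 0.21 and 0.17).

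Median of ratios scaling turned the difference of Dio3 between TX 2i ESCs and MEFs to -0.042 and that of Dlk1 between F KSR2 and F KSR4 to -0.053. With a library left out, differences that did not pass changed sign for Dio3 in F KSR2 (-2.20 to 0.0039) and TX 2i ESCs (-0.068 to 0.61), for Dlk1 between female and male lines (-0.42 to 0.042) and between F KSR2 and F KSR4 (-0.26 to 0.47), and for Meg3 between F KSR2 and F KSR4 (-0.66 to 0.49). The cause was not tested. Computed from the deposited per-allele values, the mean maternal share was 42.0% for Meg3 in F KSR2 and 14.3% in M KSR3, and 50.9% for Dlk1 in F KSR2 and 69.4% in M KSR5. A variance trend on mean allelic reads, chosen after seeing the data, made the Dlk1 balance pass in F KSR4 (adjusted p = 0.039). Over all values recomputed, 1611 stayed on their side of the threshold or within their spread, 36 became weaker, 17 stronger, 13 changed sign and 7 moved. Depth limits Dlk1, Dio3 and Rtl1, whose allelic reads numbered at most 38 in a pluripotent library.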
